A study of Homo sapiens with 2 samples.

Results

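Aminoacyl-tRNA synthetases, the enzymes that load each amino acid onto its tRNA, were examined in HCT116, a human colorectal cancer cell line. The genes were chosen by name: the synthetases of the cytosol, whose symbols end in ARS or ARS1, those of the mitochondria, whose symbols end in ARS2, and EPRS1, FARSA, FARSB, QRSL1, AIMP1, AIMP2 and EEF1E1. Of 41 genes that meet this rule, 34 had a probe set paired with no other gene and were measured, out of 13704 genes measured in all. MARS1, QARS1 and TARS2 were read only by probe sets that are also paired with a microRNA gene, and the other 4 genes were not analysed here.

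Total RNA from 2 cultures was measured on expression arrays, with 1 array for each. The first culture is HCT116-CPEB4, labelled as over-expressing CPEB4, an RNA-binding protein that regulates poly(A) tails and translation, from a lentiviral system. The second is HCT116-GFP, labelled as wild type; what the GFP in its name stands for is not stated in these sources. Both were grown in the same medium and carry the genetic background of HCT116. The values are linear intensities, and each difference below is a log2 value of HCT116-CPEB4 minus HCT116-GFP. With 1 array for each group no difference has a replicate check or a test, and how precise a value is cannot be known from so few arrays. In RNA from a whole culture, less RNA per cell and fewer cells that hold it cannot be told apart.

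The 4 probe sets of CPEB4 read lower on the array labelled HCT116-CPEB4 than on the HCT116-GFP array. The dimmest read 21.0 and 60.1 (−1.52), under the dim filter described below on both arrays, and the others ran from −0.44 to −0.08. The parts of the transcript that these 4 probe sets read are not known here, so they may not check the label, and every direction below rests on the labels. Median intensities were 61.1 and 60.6 on the arrays labelled HCT116-CPEB4 and HCT116-GFP. The ratio of 3′ to 5′ signal of ACTB, a measure of RNA integrity, was 10.3 on the array labelled HCT116-CPEB4 and 8.23 on the HCT116-GFP array, and that of GAPDH was 1.04 and 0.989. Their part in the differences was not tested. Of 10 colon epithelial markers 9 had a probe set of 1 gene, and all 9 passed the filter on dim probe sets described next, with summed intensities of 96218 and 94678. The brightest probe set of VIL1 passed through the HCT116-CPEB4 array alone (77.0 and 32.2). Its other kept probe set passed through the HCT116-GFP array and went the other way (−5.60), so the sign of VIL1 is not settled. Of 19 markers of fibroblasts, blood and endothelium 17 had such a probe set and 5 passed, the brightest being the fibroblast marker COL1A1 at 1292 and 949.

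Probe sets were kept if at least 1 array read 60.8 or more, which is the 50th percentile of the table, and each gene was represented by the brightest of its kept probe sets, by mean log2 intensity over both arrays. All 34 synthetase genes passed. At that probe set both intensities were above the filter in each of them, and in 31 both were above 377, the 75th percentile. Differences between bright probe sets scatter less on these arrays than those between dim ones, which bears on every comparison with all genes below.

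Each synthetase recognises 1 amino acid and the tRNAs that carry it, activates the amino acid with ATP and joins it to the end of the tRNA. Cytosolic and mitochondrial translation use separate enzymes for most amino acids, and all of them are encoded in the nucleus, most by separate genes. GARS1 and KARS1 each serve both compartments. Several cytosolic synthetases assemble with the scaffold proteins AIMP1, AIMP2 and EEF1E1 into the multi-synthetase complex. In the integrated stress response, the transcription factor ATF4 induces many cytosolic synthetase genes together with genes of amino acid synthesis and transport, and WARS1 is known for its induction by interferon-gamma.

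No synthetase gene differed by 2-fold or more in either direction. Over all genes, 3.55% were higher and 3.85% lower on the array labelled HCT116-CPEB4 by that rule of size. With a smaller step, a log2 difference of 0.32 or more, 6 of the 34 genes (17.6%) were higher and 3 (8.82%) were lower, against 17.7% higher and 17.9% lower over all genes. Among the 8463 genes that passed the stricter filter of 377 the same shares were 11.7% and 11.2%, and there 6 of 31 synthetase genes (19.4%) were higher and 2 (6.45%) lower. The share of higher genes was thus near that of all genes and above that of the genes past the stricter filter, a difference that was not tested. By count 25 of the 34 lay above 0, with a median of 0.07, while 50.1% of all genes lay above 0, with a median of 0.00.

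**Figure D1:**
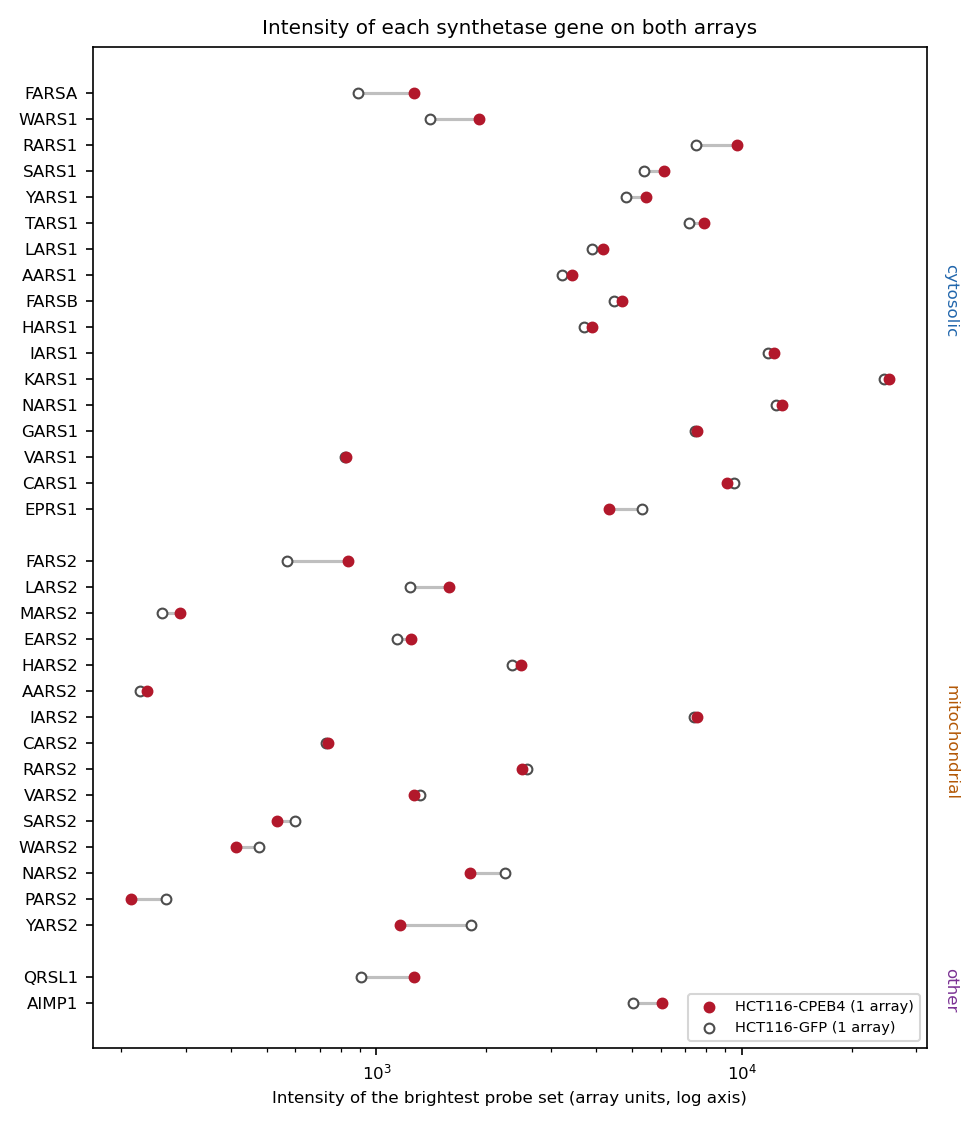
Intensity of each measured synthetase gene at its brightest kept probe set (array units, log axis), with the array labelled HCT116-CPEB4 as filled red points and the HCT116-GFP array as open points, 1 array each. Genes run from the highest to the lowest log2 difference within each group, and most pairs of points lie close together, with YARS2 at 1157 and 1815 the widest pair. Positions along the axis are not comparable between genes, because each probe set has its own brightness.

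The 17 measured cytosolic synthetases differed little and mostly in 1 direction. Of these, 15 lay above 0 and 2 below, with a median of 0.07 and a range from −0.30 to 0.51. In 10 of the 17 (58.8%) the difference was within 0.1 of 0, against 24.2% of all genes and 30.1% of the genes that passed the stricter filter. FARSA, WARS1 and RARS1 passed 0.32 on the log2 scale, all 3 upwards. As shares these are 17.6% higher and 0% lower, against 17.7% and 17.9% of all genes and 11.7% and 11.2% past the stricter filter.

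FARSA, the catalytic subunit of cytosolic phenylalanyl-tRNA synthetase, read 1264 on the array labelled HCT116-CPEB4 and 889 on the HCT116-GFP array, a difference of 0.51. Its other probe set read 490 and 280, a difference of 0.80, so both were higher. FARSB, the partner subunit of the same enzyme, read 4692 and 4466 at its brightest probe set (0.07), and its other kept probe set read 81.1 and 34.0, the second of these values under the dim filter. At their brightest probe sets the subunits therefore differed by unequal amounts, and the 2 kept probe sets of FARSB disagree in size.

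WARS1, the tryptophanyl-tRNA synthetase, read 1903 on the array labelled HCT116-CPEB4 and 1405 on the HCT116-GFP array (0.44), which stood at percentile 87.7 of all genes. Its other probe set read 578 and 350 (0.72), in the same direction. RARS1, the arginyl enzyme of the complex, read 9719 and 7477 (0.38) at its 1 probe set. The 3 genes are thus each higher by less than 1.5-fold at their brightest probe set.

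Of the cytosolic enzymes below 0, EPRS1 joins glutamyl and prolyl synthetase activities in 1 chain and is a member of the complex. It read 4342 on the array labelled HCT116-CPEB4 and 5329 on the HCT116-GFP array (−0.30), just short of the 0.32 step. A second probe set of nearly the same brightness read 4608 and 5012 (−0.12), and a dimmer one read 422 and 353 (0.26), so the sign is not shared by all 3. CARS1, the cysteinyl enzyme, read 9096 and 9521 (−0.07), and its other kept probe sets lay at −0.17 and −0.54, all below 0.

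The remaining cytosolic enzymes lay between 0.01 and 0.19. SARS1 read 6139.5 and 5401 (0.19), YARS1 5473 and 4828 (0.18), and TARS1 7908 and 7180 (0.14) on the arrays labelled HCT116-CPEB4 and HCT116-GFP. These are the seryl, tyrosyl and threonyl enzymes, and a dimmer probe set of YARS1 went the other way, at 43.7 and 114 (−1.39). LARS1, the leucyl enzyme, read 4168 and 3895 (0.10), with its other 3 probe sets from −0.08 to 0.83. AARS1 differed by 0.09, HARS1 by 0.07, IARS1 by 0.06, KARS1 and NARS1 by 0.05, GARS1 by 0.02 and VARS1 by 0.01. These 7 genes serve alanine, histidine, isoleucine, lysine, asparagine, glycine and valine. At its brightest probe set each thus read nearly the same on both arrays, with its own 2 values no more than 1.06-fold apart. The other probe set of KARS1 read 9467 and 8179 (0.21), and that of SARS1 read 569 and 565 (0.01).

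**Figure D2:**
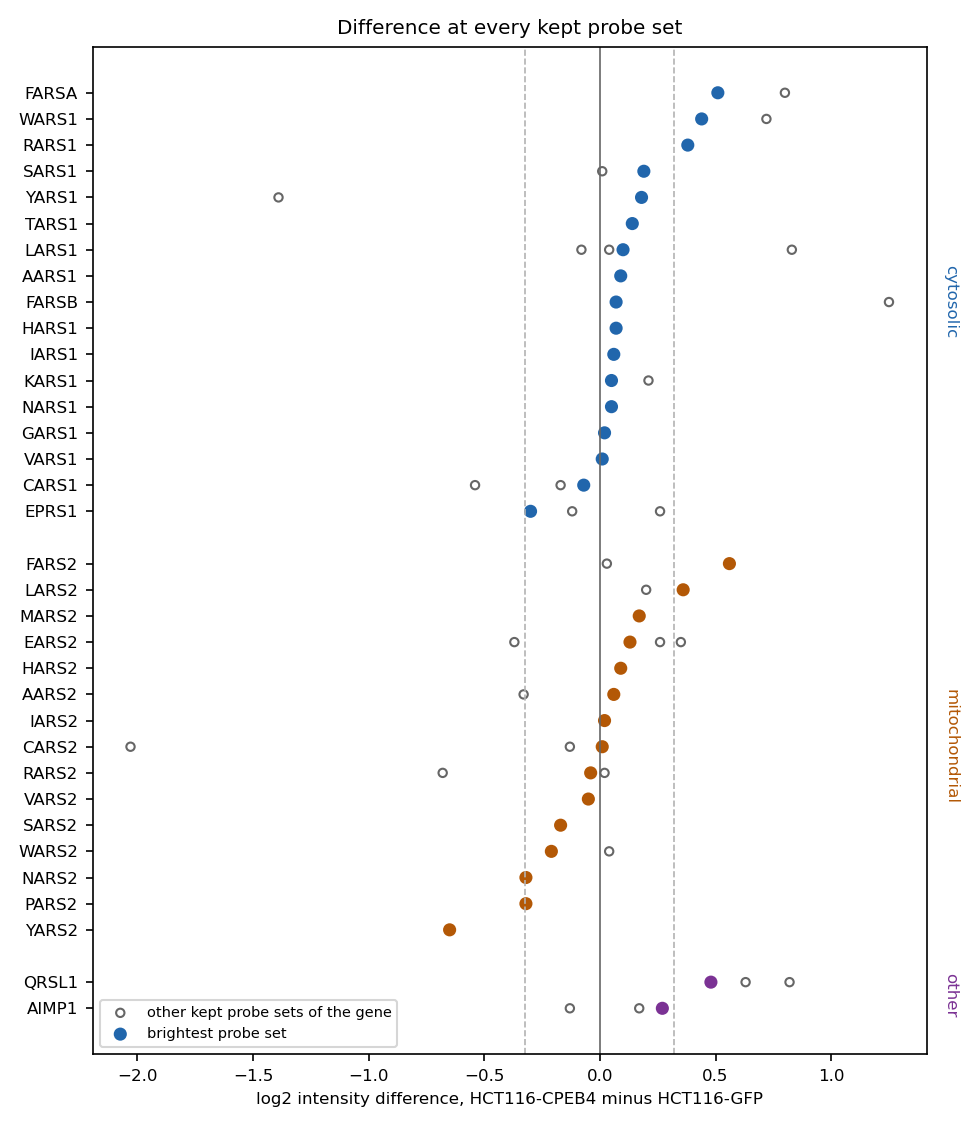
Log2 intensity difference (HCT116-CPEB4 minus HCT116-GFP) of every kept probe set, by gene, with the brightest probe set filled and the others open, and dashed lines at 0.32 in each direction. All probe sets of FARSA, WARS1 and QRSL1 lie to the right of the upper line, while YARS1, CARS2 and FARSB each have a dim probe set far from the brightest one.

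The multi-synthetase complex was covered in part, by 6 of its 11 genes. Of these 5 lay above 0, with a median of 0.08, and EPRS1 was the 1 below. AIMP1, a scaffold subunit, read 6042 on the array labelled HCT116-CPEB4 and 5026 on the HCT116-GFP array (0.27), but its other probe sets read 1835 and 2010 (−0.13) and 963 and 855 (0.17). The sign of AIMP1 is therefore not settled across its probe sets. The 12 cytosolic genes outside the complex had the same median of 0.08, with 11 above 0.

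The 15 measured mitochondrial synthetases had differences on both sides of 0. Of these 8 lay above 0 and 7 below, with a median of 0.01 and a range from −0.65 to 0.56. By the 0.32 rule 2 were higher and 3 lower, shares of 13.3% and 20.0%, near the 17.7% and 17.9% of all genes.

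YARS2, the mitochondrial tyrosyl enzyme, had the difference farthest from 0 of all 34 genes. It read 1157 on the array labelled HCT116-CPEB4 and 1815 on the HCT116-GFP array at its 1 probe set, a difference of −0.65 (1.57-fold lower), at percentile 7.09 of all genes. NARS2 and PARS2, for asparagine and proline, read 1798 and 2250 and 212 and 265, and both stood at −0.32, just past that step. WARS2 read 412 and 476 (−0.21) but stood at 0.04 at its other kept probe set, and SARS2 read 534 and 599.5 (−0.17).

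On the other side, FARS2, which charges phenylalanine in mitochondria as a single chain, read 838 on the array labelled HCT116-CPEB4 and 570 on the HCT116-GFP array (0.56). Its other kept probe set read 406 and 399 (0.03), so the size of this difference depends on the probe set. LARS2, the leucyl enzyme, read 1584 and 1236 (0.36) and was also higher at its second probe set (0.20). MARS2 differed by 0.17, EARS2 by 0.13, HARS2 by 0.09, AARS2 by 0.06, IARS2 by 0.02, CARS2 by 0.01, RARS2 by −0.04 and VARS2 by −0.05. Kept probe sets of AARS2, CARS2, EARS2 and RARS2 had both signs, and those farthest from the brightest were dim, such as 17.1 and 69.8 for CARS2 (−2.03).

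QRSL1 is the catalytic subunit of the mitochondrial amidotransferase that converts glutamate bound to the glutamine tRNA into glutamine, since mitochondria have no glutaminyl-tRNA synthetase. It read 1264 on the array labelled HCT116-CPEB4 and 905 on the HCT116-GFP array (0.48), and its other kept probe sets read 375 and 242 (0.63) and 251 and 142 (0.82). All 3 were thus higher. The partner subunits GATB and GATC read 843 and 767 (0.14) and 1604 and 1431 (0.16). EARS2, which supplies the misacylated substrate, read 1247 and 1139.

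For 11 amino acids both the cytosolic and the mitochondrial enzyme were measured under paired symbols. The cytosolic difference was the higher in 8 and the mitochondrial in 3, with a median gap of 0.06 and a range from −0.26 to 0.83. The widest gap was for tyrosine, where YARS1 stood at 0.18 and YARS2 at −0.65, a gap of 0.83. It rests on the brightest probe set of YARS1, and was 0.05 when all probe sets of a gene were averaged. The gap was −0.74 when x, s and a probe sets were left out, whose suffix marks shared or possibly cross-hybridising probes. That leaves YARS1 its dim probe set alone (43.7 and 114). By these alternatives, in that order, the cytosolic difference was the higher in 9 of 11 and in 5 of 8 pairs, with median gaps of 0.22 and 0.19. Tryptophan followed, with WARS1 at 0.44 and WARS2 at −0.21, then arginine (0.38 and −0.04), asparagine (0.05 and −0.32) and serine (0.19 and −0.17). Leucine went the other way, with LARS1 at 0.10 and LARS2 at 0.36. For alanine, cysteine, histidine, isoleucine and valine the enzymes of both compartments were within 0.1 of each other.

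Probe sets of 1 gene gave the only check on these values. Among the 18 synthetase genes with 2 or more kept probe sets, all kept probe sets shared a sign in 9, against 45.5% of the 6520 such genes overall. The median gap between the differences of the 2 brightest probe sets was 0.17 in the synthetase genes and 0.27 over all genes. In 20 of the 34 synthetase genes the difference itself was smaller than that gap of 0.17. The other 16 genes have 1 kept probe set. Of the 9 genes past 0.32 in either direction, none had a kept probe set of the opposite sign, but RARS1, NARS2, PARS2 and YARS2 rest on 1 kept probe set each.

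**Figure D3:**
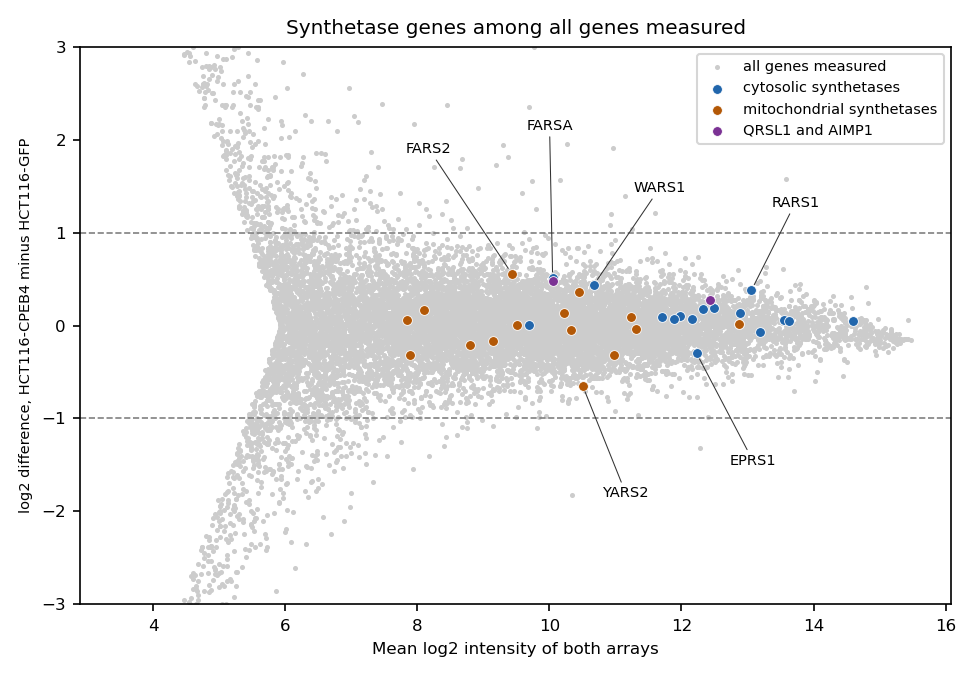
Log2 difference (HCT116-CPEB4 minus HCT116-GFP) against the mean log2 intensity of both arrays for the 13704 genes measured (grey), with cytosolic synthetases in blue, mitochondrial ones in orange and QRSL1 and AIMP1 in purple. Dashed lines mark 2-fold, 124 genes beyond 3 in either direction are not drawn, and every synthetase lies between −0.65 and 0.56, inside the dashed lines.

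Of the cytosolic synthetases, 12 are widely known as ATF4 targets, and 11 of them were measured. ATF4 itself read 14274 on the array labelled HCT116-CPEB4 and 20156 on the HCT116-GFP array (−0.50), and its target DDIT3, the transcription factor CHOP, read 694 and 2456 (−1.82). The 11 synthetases on the ATF4 list had 9 genes above 0 and 2 below, with a median of 0.09. The 6 measured cytosolic synthetases not on that list were all above 0, with a median of 0.07.

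Other ATF4 targets went the other way. Of 29 measured, 25 lay below 0 and 4 above, with a median of −0.24, and 10 (34.5%) were lower by 0.32 or more against 1 (3.45%) higher, where all genes had 17.9% lower and 17.7% higher. DDIT4, an inhibitor of mTORC1, read 3163 on the array labelled HCT116-CPEB4 and 7878 on the HCT116-GFP array (−1.32). The cystine transporter SLC7A11 differed by −0.97, the cystathionine lyase CTH by −0.54 and the neutral amino acid transporter SLC1A4 by −0.51, although SLC7A11 and SLC1A4 each had a probe set close to or above 0, at −0.03 and 0.18. The serine synthesis enzymes PHGDH and PSAT1, at −0.21 and −0.19, and the asparagine synthetase ASNS, at −0.11, lay closer to 0. ATF3 (0.32) and the tRNA export factor XPOT (0.16) were the farthest above 0. The difference between the synthetases and the other ATF4 targets was not tested, and the lower values of DDIT3, DDIT4 and SLC7A11 were known when the lists were drawn up.

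Composite C/EBP-ATF elements, which ATF4 binds with a C/EBP partner, were sought by their core, TGATGNAA, on both strands in RefSeq promoter sequences of build GRCh38.p14, which run from 250 bases before to 50 after each gene start. The core was present for 4.46% of 27305 genes. It was found in 7 of the 16 cytosolic synthetases with a promoter sequence, AARS1, CARS1, GARS1, IARS1, MARS1, NARS1 and TARS1, all of them on the ATF4 list. Among mitochondrial enzymes it was found in 1 of 14, YARS2, and among the other ATF4 targets in 8 of 26. A match describes these letters and not a bound site. The 6 measured cytosolic matches and that of YARS2 are given here with those of ASNS and SLC1A4, so that synthetases can be set beside ATF4 targets of other function, as 30 bases on the strand of the gene with the core, or its reverse complement, in capitals.
AARS1 (chr16:70289675-70289704, minus strand): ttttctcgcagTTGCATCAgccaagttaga
CARS1 (chr11:3057407-3057436, minus strand): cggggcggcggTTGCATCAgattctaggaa
GARS1 (chr7:30594834-30594863, plus strand): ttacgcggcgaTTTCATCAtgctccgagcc
IARS1 (chr9:92293692-92293721, minus strand): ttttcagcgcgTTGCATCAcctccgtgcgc
NARS1 (chr18:57621804-57621833, minus strand): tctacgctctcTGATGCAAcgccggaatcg
TARS1 (chr5:33440956-33440985, plus strand): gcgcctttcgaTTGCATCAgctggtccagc
YARS2 (chr12:32756076-32756105, minus strand): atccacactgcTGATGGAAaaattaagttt
ASNS (chr7:97872458-97872487, minus strand): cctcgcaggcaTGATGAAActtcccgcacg
SLC1A4 (chr2:64989381-64989410, plus strand): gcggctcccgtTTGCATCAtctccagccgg

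In SLC1A4, as in IARS1 and CARS1, it lay within 13 bases before a gene start, and SLC1A4 stood at −0.51 while IARS1 stood at 0.06 and CARS1 at −0.07. SLC1A4 read 156 on the array labelled HCT116-CPEB4 and 222 on the HCT116-GFP array, and its 4 kept probe sets ran from −0.92 to 0.18, so its sign is not settled. The 6 cytosolic synthetases that hold the core lay between −0.07 and 0.14, with 5 above 0 and a median of 0.05. The 8 that have a promoter sequence without it and were measured lay between −0.30 and 0.51, with a median of 0.13. The 8 other ATF4 targets that hold it had 7 below 0 and a median of −0.11, and the 16 without it had 14 below 0 and a median of −0.25. Over all 329 measured genes that hold the core, 183 lay below 0, with a median of −0.06. YARS2, with the core 197 bases before a start, stood at −0.65. These are descriptions of few genes, and the same letters accompany differences of either sign.

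WARS1 was read beside interferon-gamma targets, since it is 1 of them. Of the 15 measured genes of that list 11 lay above 0, with a median of 0.22 (0.40 when probe sets were averaged), and 6 (40.0%) were higher by 0.32 or more, against 17.7% of all genes. IRF1, the transcription factor that carries much of the response, read 414 on the array labelled HCT116-CPEB4 and 348 on the HCT116-GFP array (0.25), the peptide transporter TAP1 differed by 0.80, and the chemokine CXCL10 read 97.7 and 5.80. ICAM1 was lower (−0.41), and HLA-DRA stood at −0.50 and 1.39 at its 2 probe sets, so its direction is not settled. WARS1 stood at 0.44. The list ran from −0.50 to 4.07, a range that holds every synthetase gene but YARS2, so it does not set WARS1 apart. On the HCT116-GFP array CXCL10 and CIITA (0.93) read under the dim filter, so they were kept through the HCT116-CPEB4 array alone. Both count among the 6 higher genes, and a gene kept this way can only be higher. The stricter filter, which gave a median of 0.25, leaves both out, but also other dim genes of either sign. These are HLA-DRA, ICAM1 and SOCS1, below 0 at their brightest probe set, and IDO1, CD274 and GBP2, above it. The 0.25 is therefore not the median without CXCL10 and CIITA alone.

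Motifs for both arms of the interferon response were found before 1 annotated start of WARS1. An interferon-gamma activated site, TTCNNNGAA, which reads the same on both strands, lay 142 bases before that start and is found in the promoters of 9.38% of genes and 3 of 16 cytosolic synthetases. The core of an interferon-stimulated response element, GAAA followed by any 2 bases and GAAA, lay 55 bases before it. That core was found in 4.38% of genes and, of the 16 cytosolic synthetases, in WARS1, and neither match overlapped another motif searched. The motif is in capitals, on the strand of the gene.
WARS1 activated site (chr14:100375470-100375499, minus strand): gctcaagtgtTTCTGAGAAtctgggtgatt
WARS1 response element (chr14:100375383-100375412, minus strand): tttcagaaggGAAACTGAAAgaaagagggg

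Genes that act before and after the synthetases were given by lists of their own. Those of tRNA processing had 20 of 26 above 0 and a median of 0.14, from TSEN34, a subunit of the tRNA splicing endonuclease (−0.36), to the tRNA ligase subunit ZBTB8OS (0.66). tRNA modification genes had 27 of 44 above 0 and a median of 0.11, with ELP2 at −0.73 but 0.25 at 1 of its probe sets, and TRMT2A at 1.33 with its HCT116-GFP value under the dim filter. Genes of RNA polymerase III, which transcribes tRNA genes, and its factors had 17 of 22 above 0 and a median of 0.11 (0.26 when probe sets were averaged), and their repressor MAF1 was lower at 249 and 353 (−0.50). CRCP read 1467 and 498 (1.56) but 0.00 at its other probe set. By the 0.32 rule these lists had 6 (23.1%), 12 (27.3%) and 5 (22.7%) genes higher and 1, 2 and 1 lower, against 17.7% higher and 17.9% lower over all genes.

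Genes of translation elongation, only some of which deliver charged tRNA to the ribosome, had 3 of 9 above 0 and a median of −0.09. EEF1A2 stood at −0.41 and the mitochondrial factor TSFM at 0.12. Partners that edit misacylated tRNA or act in mitochondrial translation had 5 of 9 above 0 and a median of 0.02 (0.14 when probe sets were averaged), with the D-aminoacyl-tRNA deacylase DTD1 at −0.39. TARS3, a cytosolic paralogue of TARS1 outside the naming rule, read 683 and 752 (−0.14), although its second probe set stood at 1.18. Regulators of the integrated stress response had a median of 0.05 over 14 genes, and their extremes were ATF4 and the kinase EIF2AK2, itself an interferon-induced gene (1.40). The cytosolic synthetase median of 0.07 thus lay between the medians of the tRNA processing and the elongation factor lists.

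**Figure D4:**
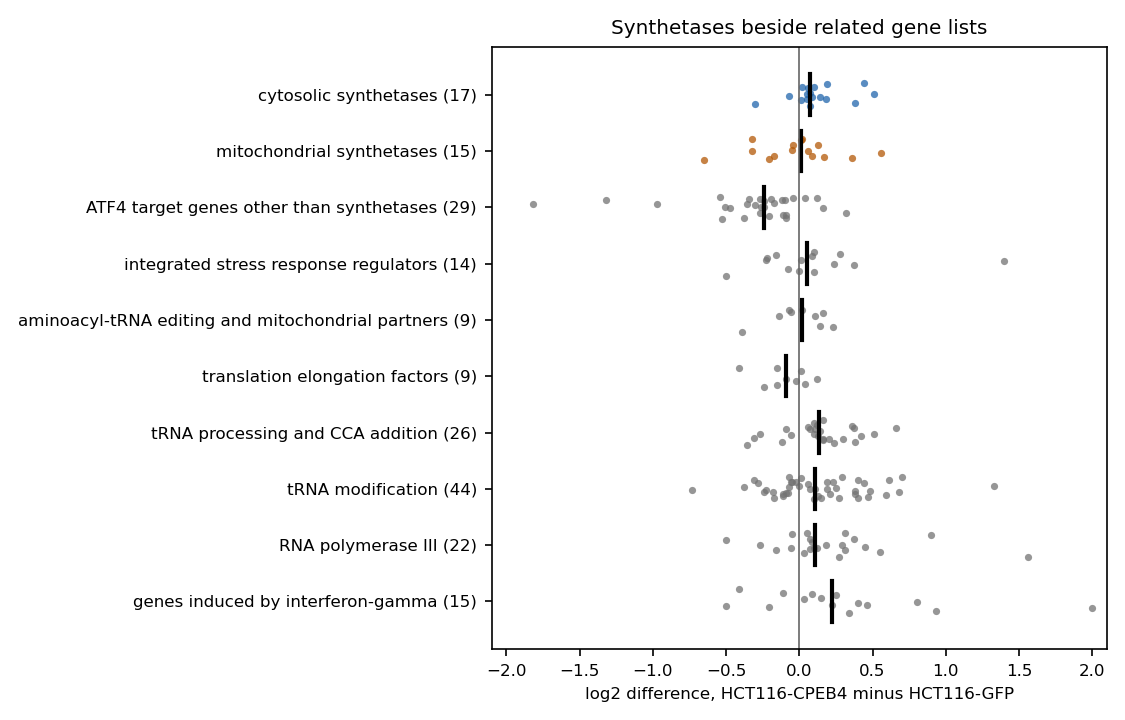
Log2 difference (HCT116-CPEB4 minus HCT116-GFP) of each measured gene in the cytosolic (blue) and mitochondrial (orange) synthetase lists and in related lists (grey), with the number of genes in brackets and the median as a black bar. CXCL10 at 4.07 is drawn at the right edge, vertical scatter within a list carries no value, and the medians run from −0.24 for the other ATF4 targets to 0.22 for interferon-gamma targets, with cytosolic synthetases at 0.07.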

How the data were processed

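The table deposited by the authors gives linear intensity values, 1 for each of 54675 probe sets on each array. Per the submitters' processing notes Partek was used, with no version or role; the summary over probes, background correction and scaling: not given in the sources used here. Both arrays have a mean of 500.1 after 2% of values are trimmed at each end, which equalises overall level only, not differences that vary with brightness. Probe sets were named through the platform annotation, with symbols updated by Entrez identifier to RefSeq (GRCh38.p14): 41097 have 1 gene, of which 41043 were found there, 1801 have several and 11777 are unnamed here. Samples were grouped by title, and 0 columns were unused. The log2 was taken with no pseudocount. Calls are rules of size, 2-fold and a log2 difference of 0.32, with no test. All synthetase genes are named; of related lists, chiefly the 2 highest and 2 lowest, ATF4, DDIT3, IRF1, GATB and GATC, and other listed genes, chosen after their values were seen, as examples. The members and lists were chosen with earlier results of these data known. The procedure was tested on simulated data, with changes larger than 2-fold in bright genes. They exceed the difference of every synthetase gene, so that test does not bear on differences as small as those reported here. The alternatives were 3 scalings, 2 other filters, an offset of 50 units, the mean over probe sets, the removal of x, s and a probe sets, and a 1.5-fold threshold. The suffixes x, s and a mark shared or possibly cross-hybridising probes. Python 3.11.15, pandas 2.3.3, scipy 1.17.1, statsmodels 0.14.6 (loess) and matplotlib 3.10.9 were used.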

Additional observations from a re-analysis of the deposited data

How the results depend on the processing

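Over the 8 alternatives of scaling, filter, offset and probe set, the median of the cytosolic synthetases stayed between 0.07 and 0.10 and that of the mitochondrial ones between −0.09 and 0.02. The number of cytosolic synthetases above 0 was 14 or 15 of 17, and 9 of 11 without x, s and a probe sets, where fewer genes are measured. Lower by 2-fold was 1 gene without those probe sets, YARS1 at its dim probe set, and 1 gene, YARS2, passed a 1.5-fold threshold. Lower by 0.32 or more were 3 genes as reported, 2 with loess or the stricter filter, 4 without x, s and a probe sets, 1 with the offset, which shrinks differences by construction, and 5 with the mean over probe sets, where the cause was not tested. Higher by 0.32 or more were 5 or 6 under each. The sign was the same under every alternative that gave a value for 28 of the 34 genes, and it turned for AARS2, AIMP1, CARS2, VARS1, WARS2 and YARS1 under at least 1. The median of the other ATF4 targets stayed below 0, from −0.26 to −0.12, the value without x, s and a probe sets. When probe sets were averaged the median was 0.40 for interferon-gamma targets, 0.26 for RNA polymerase III and 0.14 for editing and mitochondrial partners. No paired analysis was possible because each group has 1 array.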

Other observations

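Synthetases fall into 2 structural classes, which differ in the fold of the catalytic domain. EPRS1 (−0.30), which joins 2 synthetase activities in 1 chain, was counted in neither class. The 16 measured class I enzymes had 11 genes above 0 and a median of 0.04, and the 15 of class II had 12 above 0 and a median of 0.07. By a log2 difference of 0.32 or more, class I had 3 higher (LARS2, RARS1 and WARS1) and 1 lower (YARS2), and class II had 2 higher (FARSA and FARS2) and 2 lower (NARS2 and PARS2). Higher and lower shares were 18.8% and 6.25% in class I and 13.3% each in class II, against 17.7% and 17.9% of all genes. These counts of few genes were not tested.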
